A study of Ictalurus punctatus with 14 samples.

Results

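The comparison was between channel catfish (Ictalurus punctatus) larvae at 8 days post fertilization (dpf) and larvae at 6 dpf, inside the period in which the fish still carry a yolk sac. Its members were both libraries labelled 8 dpf and both labelled 6 dpf, stages chosen for their similar mapping rates in the study's records, 4 of the 14 libraries of a series that holds 2 replicates at each of 7 stages. Each library was made from total RNA, depleted of ribosomal RNA, of a pool of whole larvae of the Kansas random strain, so every organ contributed to it and the sex of the fish was not known. The 8 dpf larvae were the older group and the 6 dpf larvae were set against them. Both came from artificially spawned brood stock kept under the same hatchery regime, except that swim-up fry were offered a powdered diet from 7 dpf onwards. The 8 dpf larvae had therefore been offered food and the 6 dpf larvae had not, and age and feeding cannot be told apart in this comparison. In RNA from whole fish, a larger number of cells of a type and more RNA per cell cannot be told apart either. The pools of a stage were separate samples of fish that were kept together. All 14 libraries shared the same fit, so the p-values measure the spread between pools of a stage over all 7 stages. They do not measure the spread at 8 and 6 dpf alone. Libraries of 7 and 9 dpf share a lower mapping rate in the study's records than those of 6 and 8 dpf. Apart from entering this fit, they were used only within their own pair or to describe the course of a gene over the stages.

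A catfish larva hatches with a gut tube that is not yet able to digest food and lives from its yolk. Over the following days the intestine forms a brush border with peptidases, sugar transporters and the peptide transporter PepT1, the stomach forms glands that secrete pepsinogen, and the liver takes over the supply of plasma proteins. Over the same days the skeleton mineralizes, axons are wrapped in myelin, rod and cone photoreceptors mature, and the first lymphocytes leave the thymus.

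The libraries held 16097718 and 8562516 counts on genes at 8 dpf, against 9677682 and 9899297 counts at 6 dpf. Values are given as CPM, the count of a gene relative to the scaled total of its library. Relative to the unscaled totals, 3 counts correspond to 0.186 and 0.350 CPM at 8 dpf and to 0.310 and 0.303 CPM at 6 dpf. The replicates correlated with Pearson's r of 0.9852 at 8 dpf and 0.9891 at 6 dpf across 20329 genes, which are not independent of each other, and 289 genes at 8 dpf and 282 genes at 6 dpf had replicates at least 2-fold apart. Replicate 1 of 8 dpf was the deepest of the 14 libraries, and its deposited counts, unlike those of the other 3 libraries compared, did not rescale to the normalized values listed with the study, so counts of DEGs are also given without it. A gene was called a differentially expressed gene (DEG) when edgeR's quasi-likelihood test gave a Benjamini-Hochberg adjusted p under 0.05 and the absolute log2 fold change was at least 1.

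In total, 595 DEGs were found between 8 and 6 dpf, 2.93% of the 20329 genes tested. At 8 dpf, 472 of them were upregulated (2.32% of the genes tested) and the others were downregulated (0.605%), so that upregulated genes made up 79.3% of the DEGs. The upregulated DEGs were also changed more: 182 of the 472 were at least 4-fold and 70 at least 8-fold higher at 8 dpf, while 27 of the downregulated DEGs were at least 4-fold and 14 at least 8-fold lower. A gene name other than a locus number was given for 294 of the upregulated and 55 of the downregulated DEGs. The DEG count depended on having both libraries of each stage. It was 167 without replicate 1 of 8 dpf, 279 without replicate 2 of 8 dpf, 144 without replicate 1 of 6 dpf and 109 without replicate 2 of 6 dpf, and in these 4 fits 553 to 577 of the 595 genes still differed at least 2-fold in their original direction. Of 173 DEGs that the naming rule and the added names picked, 46 to 81 remained DEGs in these fits. The 595 genes were chosen for a fold of at least 2 in these same libraries. Keeping that fold when a single library was left out, here and in the lists below, was therefore largely fixed in advance. Across all genes tested, the median log2 fold change was -0.04 and 45.6% lay above 0. The 8 dpf and 6 dpf libraries did not overlap in any of the 595 DEGs. In 61.0% of all genes tested they did not overlap either, so a lack of overlap alone says little.

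**Figure D1:**
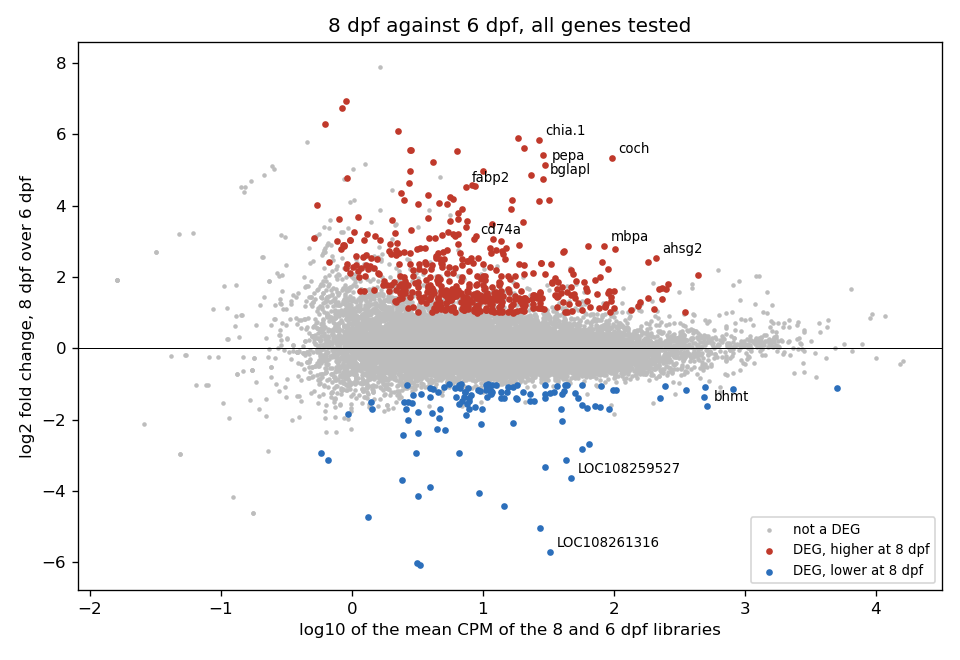
Each point is a gene tested that had a count in the 4 libraries, placed by the log10 of its mean CPM over the 8 and 6 dpf libraries (x axis) and its log2 fold change, 8 dpf over 6 dpf (y axis), with the DEGs higher at 8 dpf in red, the DEGs lower at 8 dpf in blue and the other genes in grey. The 472 red points reach further from 0 and are more numerous than the blue points.

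Genes of the stomach and intestine were among the most strongly upregulated DEGs. The pepsin gene pepa, which encodes the aspartic protease of gastric juice, had 51.3 and 65.5 CPM in the 8 dpf libraries, against 1.65 and 1.65 CPM at 6 dpf. Its log2 fold change was 5.13 ± 0.77 (approximate SE from the test statistic, adjusted p = 0.00341 in edgeR's quasi-likelihood test, as for all adjusted p below). The stomach list, which does not hold pepa, had a single measured gene, cldn18, a claudin of tight junctions known from the stomach and lung of mammals. It had 9.6 and 16.5 CPM at 8 dpf, against 0.823 and 0.876 CPM at 6 dpf, a log2 fold change of 3.90 ± 0.56 (adjusted p = 0.00344). For both genes the 8 dpf libraries lay far above the 6 dpf libraries, without overlap, although cldn18 was no longer a DEG without replicate 1 or without replicate 2 of 6 dpf.

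In the intestinal absorption list, 13 of 22 tested genes were upregulated at 8 dpf, against 2.32% of all genes. None was downregulated, against 0.605% of all genes, and the median log2 fold change was 1.79 over the 22. The chitinase gene chia.1 stood first: chitinases cut chitin, the polymer of arthropod cuticle. It had 44.4 and 60.7 CPM at 8 dpf, against 0.515 and 1.26 CPM at 6 dpf, a log2 fold change of 5.84 ± 0.35 (adjusted p = 1.27e-05). The gene fabp2, which encodes the intestinal fatty acid-binding protein, had 12.8 and 15.6 CPM at 8 dpf, against 0.515 and 0.681 CPM at 6 dpf. Its log2 fold change of 4.52 ± 0.80 had an adjusted p of 0.00923. Both copies of the di- and tripeptide transporter gene PepT1 were upregulated. The copy slc15a1b had 30.7 and 30.9 CPM at 8 dpf, against 2.16 and 1.95 CPM at 6 dpf (log2 fold change 3.90 ± 0.50), and the copy slc15a1a had 10.4 and 13.5 CPM at 8 dpf, against 0.823 and 1.07 CPM at 6 dpf (log2 fold change 3.62 ± 0.56). In all 4 genes each 8 dpf library exceeded each 6 dpf library by several fold.

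Further DEGs of that list were enzymes and transporters of the brush border. Intestinal alkaline phosphatase (alpi.2) had 34.6 and 32.6 CPM at 8 dpf and 5.15 and 3.89 CPM at 6 dpf, with a log2 fold change of 2.89 ± 0.49. The aminopeptidase gene enpep, with 12.4 and 13.7 CPM at 8 dpf and 3.09 and 1.65 CPM at 6 dpf, had a log2 fold change of 2.46 ± 0.57. The sodium-glucose cotransporter gene slc5a1 was measured at 8.63 and 11.5 CPM at 8 dpf and at 2.26 and 1.95 CPM at 6 dpf. Sucrase-isomaltase (si), which cuts disaccharides, had 87 and 98.9 CPM at 8 dpf and 30.4 and 27.6 CPM at 6 dpf. The peptidase gene dpp4, the cholesterol transporter npc1l1, the vitamin B12 receptor subunit cubn and villin (vil1), an actin-bundling protein of microvilli, were also upregulated, with log2 fold changes from 1.05 for dpp4 to 1.73 for cubn. Apolipoprotein B, which carries lipid out of the intestine, the liver and the yolk layer, did not follow them: apoba had a log2 fold change of -0.67 and apobb.1 of -0.28, both without passing the test. Since the apolipoprotein transcripts make up most of the list's reads, the summed level of the list was 11010 and 12620 CPM at 8 dpf, against 14460 and 15010 CPM at 6 dpf. Without replicate 1 of 6 dpf or without replicate 2 of 6 dpf the list kept 2 upregulated DEGs, without replicate 1 of 8 dpf 4 and without replicate 2 of 8 dpf 5, while 12 or all 13 of the genes still differed at least 2-fold.

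**Figure D2:**
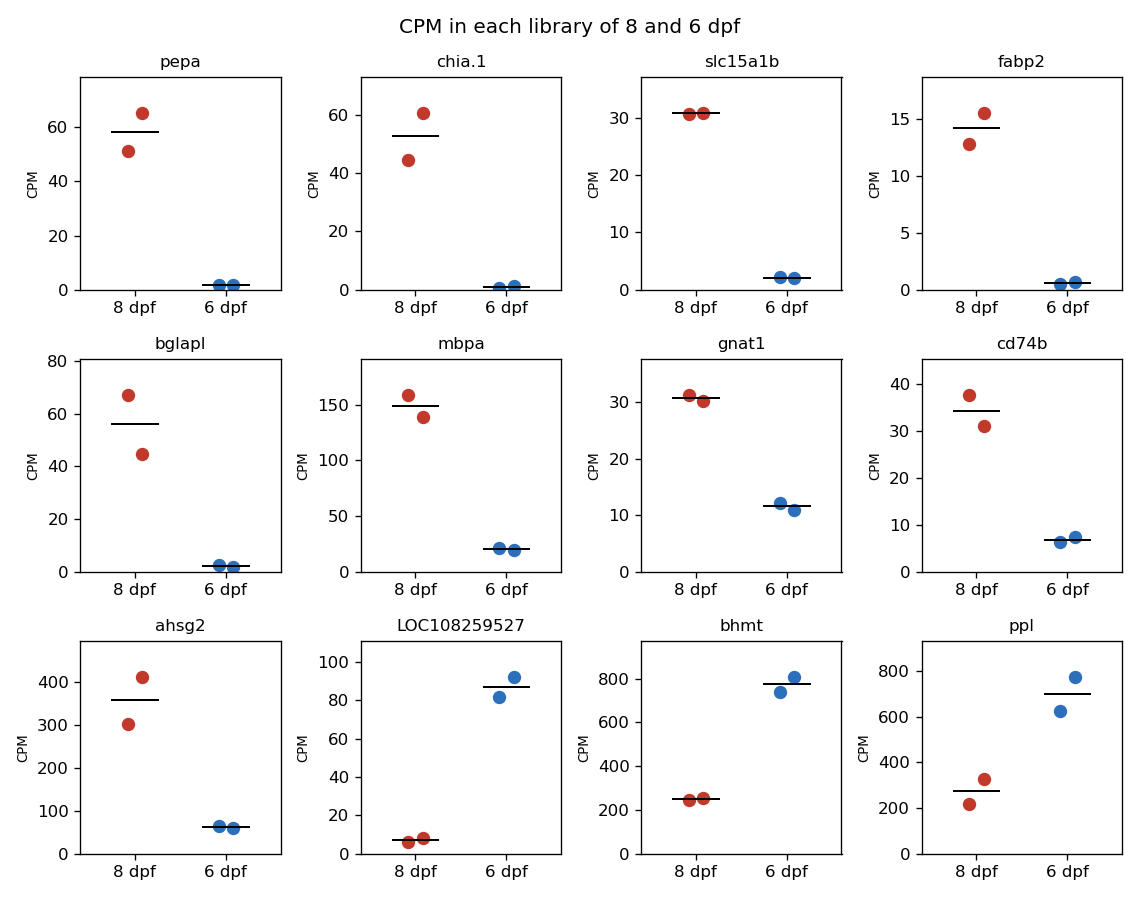
CPM (y axis, from 0) of 12 genes in each library of 8 dpf (left, red) and 6 dpf (right, blue), with a black line at the mean of the 2 libraries of a stage. In pepa, chia.1, slc15a1b, fabp2, bglapl, mbpa, gnat1, cd74b and ahsg2 the 8 dpf points lie above the 6 dpf points, and in LOC108259527, bhmt and ppl they lie below.

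Enzymes of the exocrine pancreas gave large fold changes that did not pass the test. The elastase gene ela2l had 15.5 and 6.91 CPM at 8 dpf, against 1.75 and 1.65 CPM at 6 dpf, with a log2 fold change of 2.75 ± 1.3 (adjusted p = 0.251). The elastase gene ela3l had 7.15 and 4.49 CPM at 8 dpf, against 0.412 and 0.681 CPM at 6 dpf, with a log2 fold change of 3.41 ± 1.6 (adjusted p = 0.246). In both, the 8 dpf libraries lay above the 6 dpf libraries, and the standard errors exceeded 1 on the log2 scale. These errors come from the fit of all 14 libraries, and replicates of later stages lay far apart. For ela2l they had 31.0 and 219 CPM at 9 dpf and 164 and 9.19 CPM at 10 dpf. For ela3l they had 16.2 and 98.5 CPM at 9 dpf and 114 and 6.09 CPM at 10 dpf. How much these stages added to the errors was not tested. The summed level of the 6 measured genes of the list was 33.6 and 19 CPM at 8 dpf and 5.56 and 4.77 CPM at 6 dpf. None of the 5 tested genes was a DEG, and their median log2 fold change was 2.23. At an unadjusted p under 0.05, which 21.1% of all genes reached (10.6% higher and 10.5% lower at 8 dpf), none passed either. DESeq2 called 0 on all 14 libraries, whereas DESeq2 and edgeR each called 4 as upregulated DEGs when fitted to the 4 libraries alone. On the 4 libraries, DESeq2 called 770 of 22742 and edgeR 1098 of 19673 of all genes as upregulated.

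Among genes of liver plasma proteins, 4 of 30 tested were upregulated at 8 dpf (13.3%, against 2.32% of all genes). In this list 1 was downregulated (3.33%, against 0.605% of all genes), and the median log2 fold change was 0.30. The fetuin gene ahsg2, whose product binds calcium phosphate in plasma, had 302 and 412 CPM at 8 dpf, against 64.1 and 59.7 CPM at 6 dpf, a log2 fold change of 2.53 ± 0.33 (adjusted p = 0.00131). The liver fatty acid-binding protein gene fabp10a had 242 and 292 CPM at 8 dpf, against 92.8 and 110 CPM at 6 dpf (log2 fold change 1.4 ± 0.20), and serpind1, the heparin cofactor, had 66.8 and 83.8 CPM at 8 dpf, against 28.6 and 33.9 CPM at 6 dpf (log2 fold change 1.27 ± 0.17). The fourth was a gene with a clone-based symbol and a log2 fold change of 1.6 ± 0.21. In the opposite direction, fetuin-B (fetub) had 283 and 352 CPM at 8 dpf, against 666 and 687 CPM at 6 dpf, a log2 fold change of -1.09 ± 0.21 (adjusted p = 0.0147). The fetuin genes ahsg2 and fetub thus moved in opposite directions between the same libraries. All 4 upregulated genes stayed DEGs without any single library, and fetub was no longer a DEG without replicate 1 or 2 of 6 dpf or without replicate 1 of 8 dpf.

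Beyond the list, several further genes that the liver expresses were upregulated; they were named after their values had been seen. The secreted phosphoprotein gene spp2 had 36.3 and 38.1 CPM at 8 dpf, against 2.88 and 3.50 CPM at 6 dpf, a log2 fold change of 3.53 ± 0.25 (adjusted p = 2.5e-05). Tryptophan dioxygenase (tdo2b) had 14.4 and 14.7 CPM at 8 dpf and 3.29 and 3.79 CPM at 6 dpf. Phenylalanine hydroxylase (pah) had 24.4 and 30.4 CPM at 8 dpf and 9.98 and 10.7 CPM at 6 dpf. The tyrosine-degrading enzyme hpda, from the fasting and glucocorticoid list, had 113 and 156 CPM at 8 dpf and 44.7 and 48.0 CPM at 6 dpf. These 3 enzymes act in the breakdown of aromatic amino acids, and their log2 fold changes were 2.03 ± 0.18, 1.4 ± 0.17 and 1.54 ± 0.18. In the fasting and glucocorticoid list as a whole, 3 of 42 tested genes were upregulated, hpda, the growth factor gene igf2a and the muscle ubiquitin ligase gene fbxo32, with a median log2 fold change of 0.17. In the list of cholesterol and fatty acid synthesis, 2 of 38 were upregulated, with a median of 0.31. These were the sterol oxidase gene msmo1 (log2 fold change 1.41 ± 0.28) and elovl2 (1.19 ± 0.22), which lengthens polyunsaturated fatty acids. Upregulated DEGs made up 7.14% of the fasting and glucocorticoid list and 5.26% of the synthesis list, against 2.32% of all genes.

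Of 30 bone genes tested, 3 were upregulated at 8 dpf (10.0%, against 2.32% of all genes) and none was downregulated. On the 4 libraries alone, edgeR called 10 of 30 and DESeq2 9 of 31 as upregulated DEGs. Over all genes these 2 fits called 1098 of 19673 and 770 of 22742 as upregulated. Testing the null of a 2-fold change called 0 of 30 bone genes, against 61 of 20329 over all genes. A minimum of 10 counts in every library called 1 of 21, against 190 of 15775. Osteocalcin-like bglapl, a small calcium-binding protein of bone matrix, had 67.2 and 44.6 CPM at 8 dpf, against 2.37 and 1.75 CPM at 6 dpf, a log2 fold change of 4.76 ± 0.87 (adjusted p = 0.0108). The gene spp1, which encodes osteopontin, had 29.1 and 20.2 CPM at 8 dpf, against 3.19 and 2.92 CPM at 6 dpf, a log2 fold change of 3.02 ± 0.59 (adjusted p = 0.0157). Periostin (postna), a matrix protein of periosteum and tendon, had 61.1 and 53.6 CPM at 8 dpf and 17.0 and 12.1 CPM at 6 dpf, a log2 fold change of 1.98 ± 0.42. The median log2 fold change of the 30 genes was 0.75, with 25 above 0. Abundant members of the list did not pass the test: col10a1a, a collagen of hypertrophic cartilage and bone-forming cells, had 2470 and 1650 CPM at 8 dpf, against 592 and 427 CPM at 6 dpf, with a log2 fold change of 2.01 ± 0.86 (adjusted p = 0.201). The type I collagen gene col1a1a had 15500 and 15300 CPM at 8 dpf, against 9450 and 7000 CPM at 6 dpf, with an adjusted p of 0.22. Their libraries did not overlap between the stages, which was also so for 61.0% of all genes tested. Of the 3 bone DEGs, 2 passed without replicate 2 of 8 dpf and none without any other single library, while all 3 kept their fold change of at least 2.

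Of 29 cartilage genes, 2 were upregulated (6.9%, against 2.32% of all genes) and 1 was downregulated (3.45%, against 0.605% of all genes). The median log2 fold change was 0.45, and it varied between 0.21 and 0.61 when single libraries were left out. The cartilage matrix gene ucmaa averaged 9.75 ± 0.595 CPM at 8 dpf, against 1.02 ± 0.748 CPM at 6 dpf (SD, n = 2 each), a log2 fold change of 3.27 ± 0.72. The cartilage protein gene cilp2 had 148 and 97.0 CPM at 8 dpf and 58.8 and 45.6 CPM at 6 dpf. Matrilin-3 (matn3b), a linker protein of young cartilage matrix, changed in the opposite direction, with 23.6 and 7.49 CPM at 8 dpf, against 74.9 and 56.6 CPM at 6 dpf, a log2 fold change of -2.04 ± 0.46 (adjusted p = 0.0299). Neither upregulated gene remained a DEG whichever single library was left out, and matn3b was a DEG without replicate 1 of 8 dpf and not without any other. Between 9 and 7 dpf the median of the 29 genes was -0.62, with 6 of them above 0.

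Among 66 genes of the extracellular matrix and its remodelling, 6 were upregulated (9.09%, against 2.32% of all genes) and none was downregulated. The median log2 fold change was 0.60, with 55 above 0. On the 4 libraries alone, edgeR called 19 of 65 as upregulated and 1 as downregulated, and DESeq2 called 15 of 67 as upregulated. Over all genes these fits called 1098 of 19673 and 770 of 22742 as upregulated. Testing the null of a 2-fold change called 0 of 66 matrix genes, against 61 of 20329 over all genes. A fit with a replicate block called 4 of 66, against 379 of 20329, and a minimum of 10 counts 4 of 55, against 190 of 15775. The gelatinase gene mmp9 had 25.7 and 16.9 CPM at 8 dpf, against 2.47 and 2.63 CPM at 6 dpf, a log2 fold change of 3.07 ± 0.71 (adjusted p = 0.0321). Collagen V (col5a2b), which sets the width of collagen fibrils, had 431 and 385 CPM at 8 dpf, against 134 and 98.2 CPM at 6 dpf, a log2 fold change of 1.81 ± 0.39. Elastin (elna) averaged 338 ± 0.941 CPM at 8 dpf and 107 ± 22.3 CPM at 6 dpf (SD, n = 2 each), a log2 fold change of 1.66 ± 0.43. The metalloproteinase genes mmp30 and mmp13b and tenomodulin (tnmd), a membrane protein of tendon, completed the 6. Without replicate 1 or 2 of 8 dpf 1 gene of the list was an upregulated DEG and without replicate 1 or 2 of 6 dpf none was, and all 6 still differed at least 2-fold. In skeletal muscle 2 of 47 genes were upregulated, myhb and myoz1a, and in heart 2 of 19, tnni4a and myl4. The median of the muscle list was 0.12, and -0.03 without replicate 1 of 8 dpf, and that of the heart list was -0.04, and 0.01 with another scaling (RLE). The muscle list held 0 DEGs without replicate 1 or 2 of 6 dpf or without replicate 1 of 8 dpf, and the heart list held 0 whichever single library of the 4 was left out. Over all genes, 2.32% were upregulated DEGs.

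In the nervous system, 8 of 25 myelin and oligodendrocyte genes were upregulated at 8 dpf (32.0%, against 2.32% of all genes) and none was downregulated. Their median log2 fold change was 0.59, with 20 above 0. Myelin basic protein (mbpa), which packs the myelin membrane, had 159 and 139 CPM at 8 dpf, against 21.3 and 19.7 CPM at 6 dpf, a log2 fold change of 2.86 ± 0.29 (adjusted p = 0.000283). Its second copy mbpb had 67.4 and 55.3 CPM at 8 dpf, against 19.1 and 18.0 CPM at 6 dpf (1.73 ± 0.16). Myelin protein zero (mpz) had 52.0 and 54.3 CPM at 8 dpf, against 13.8 and 15.3 CPM at 6 dpf (1.87 ± 0.20), and the myelin-associated glycoprotein mag had 124 and 99.4 CPM at 8 dpf, against 37.9 and 39.7 CPM at 6 dpf (1.53 ± 0.18). The replicates of these 4 genes lay close together at each stage and far apart between the stages.

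The other 4 upregulated myelin genes were the claudin genes cldnk and cldn19, proteolipid protein plp1b, and gpr17, a receptor of immature oligodendrocytes, with log2 fold changes from 1.08 for gpr17 to 1.41 for cldnk. Without 1 library of the 4 at a time, 4 or 5 genes of the list remained above the thresholds and all 8 kept their fold of at least 2. In the synapse list, 0 of 75 tested genes were DEGs in edgeR's test, 5 had an unadjusted p under 0.05, all of them higher at 8 dpf (10.6% of all genes), and DESeq2 called 0 as well. The median was -0.07, close to the median of all genes. The vesicle fusion gene snap25a had 150 and 129 CPM at 8 dpf and 98.0 and 101 CPM at 6 dpf, an adjusted p of 0.102. In the list of neural progenitors and neurogenesis, 0 of 50 were DEGs, 16 had an unadjusted p under 0.05, all lower at 8 dpf (10.5% of all genes), DESeq2 called 0 and edgeR on the 4 libraries alone called 1 as downregulated, and 5 of the 50 lay above 0. The median of that list was -0.35, and it lay between -0.40 and -0.27 when the scaling was changed or a library was left out.

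In the eye, 6 of 50 photoreceptor genes were upregulated, against 2.32% of all genes, and none was downregulated, against 0.605%. Their median log2 fold change was 0.80, with 44 of 50 above 0, against 45.6% of all genes. Rod transducin (gnat1) had 31.4 and 30.3 CPM at 8 dpf, against 12.1 and 11 CPM at 6 dpf, a log2 fold change of 1.41 ± 0.20 (adjusted p = 0.0025). Rod arrestin (saga), which ends the response of rhodopsin, had 28.7 and 27.9 CPM at 8 dpf, against 12.4 and 13.1 CPM at 6 dpf, a log2 fold change of 1.15 ± 0.20. The rod phosphodiesterase subunit gene pde6b, the disc rim genes rom1a and rom1b and the cone transducin subunit gene gnb3a were the other 4, between 1.08 and 1.52. The count depended on the processing. RLE scaling called 11 of 50 as upregulated and DESeq2 on all 14 libraries 11 of 52. On the 4 libraries alone, edgeR called 19 of 49 and DESeq2 13 of 52. Over all genes these 4 settings called 538 of 20329, 597 of 23036, 1098 of 19673 and 770 of 22742. Testing the null of a 2-fold change called 0 of 50, and a minimum of 10 counts 0 of 5. The photoreceptor DEG count was 0 without replicate 2 of 6 dpf, 1 without replicate 1 of 6 dpf, 1 without replicate 1 of 8 dpf and 2 without replicate 2 of 8 dpf, whereas the median stayed between 0.73 and 0.91 in these 4 fits. Lens crystallins gave 0 DEGs among 22 genes tested in edgeR, 3 with an unadjusted p under 0.05, 0 in DESeq2 on all 14 libraries, 1 in DESeq2 and 2 in edgeR on the 4 libraries alone, and a median of 0.31 with 21 of 22 above 0.

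Genes of white blood cells were upregulated in both immune lists. In the innate list, 9 of 49 were upregulated and 2 were downregulated, with a median of 0.56. In the list of lymphocytes and antigen presentation 7 of 35 were upregulated and none was downregulated, with a median of 0.61. Of all genes tested, 2.32% were upregulated and 0.605% were downregulated DEGs. The invariant chain of MHC class II is encoded by cd74a and cd74b. The copy cd74a had 15.1 and 15.3 CPM at 8 dpf, against 2.16 and 1.46 CPM at 6 dpf, a log2 fold change of 3.06 ± 0.58 (adjusted p = 0.0132), and cd74b had 37.8 and 31.0 CPM at 8 dpf, against 6.28 and 7.39 CPM at 6 dpf, a log2 fold change of 2.33 ± 0.47. The thymus-homing receptor gene ccr9b had 3.99 and 3 CPM at 8 dpf and 0.412 and 0.486 CPM at 6 dpf (2.94 ± 0.44), and the T-cell coreceptor gene cd4-1 had 3.03 and 2.54 CPM at 8 dpf and 0.721 and 0.778 CPM at 6 dpf (1.89 ± 0.36). The T-cell kinase gene lck, the lymphoid transcription factor gene ikzf1 and ptprc, the pan-leukocyte phosphatase CD45, had log2 fold changes from 1.13 for ptprc to 1.56 for lck. All 7 genes were higher in each 8 dpf library than in each 6 dpf library, as were all upregulated DEGs. The stages did not overlap in 61.0% of all genes tested.

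Among myeloid genes, progranulin (grna) had 12.8 and 14.9 CPM at 8 dpf, against 2.47 and 2.24 CPM at 6 dpf, a log2 fold change of 2.54 ± 0.26 (adjusted p = 0.00027). The leukocyte actin bundler lcp1 had 106 and 83.1 CPM at 8 dpf, against 34 and 28.0 CPM at 6 dpf (1.61 ± 0.38). The neutrophil oxidase subunit gene ncf1, the macrophage growth factor receptor gene csf1rb, the neutrophil receptor gene csf3r, the myeloid transcription factor gene spi1a, perforin-like mpeg1.1 of macrophages, coro1a and the scavenger receptor gene marco were the other 7. Downregulated in the same list were complement component C7 (c7b), with 21.3 and 16.9 CPM at 8 dpf against 45.0 and 46.5 CPM at 6 dpf (-1.25 ± 0.17), and intelectin (itln3), with 24.2 and 17.4 CPM at 8 dpf against 50.9 and 48.0 CPM at 6 dpf (-1.24 ± 0.28). The innate DEGs that rose numbered 1 without any single library of the 4, and those of the lymphocyte list 1 and 2 without replicate 1 and replicate 2 of 8 dpf and 0 without replicate 1 or 2 of 6 dpf. All of the 9 and all of the 7 still differed at least 2-fold in each of these fits.

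**Figure D3:**
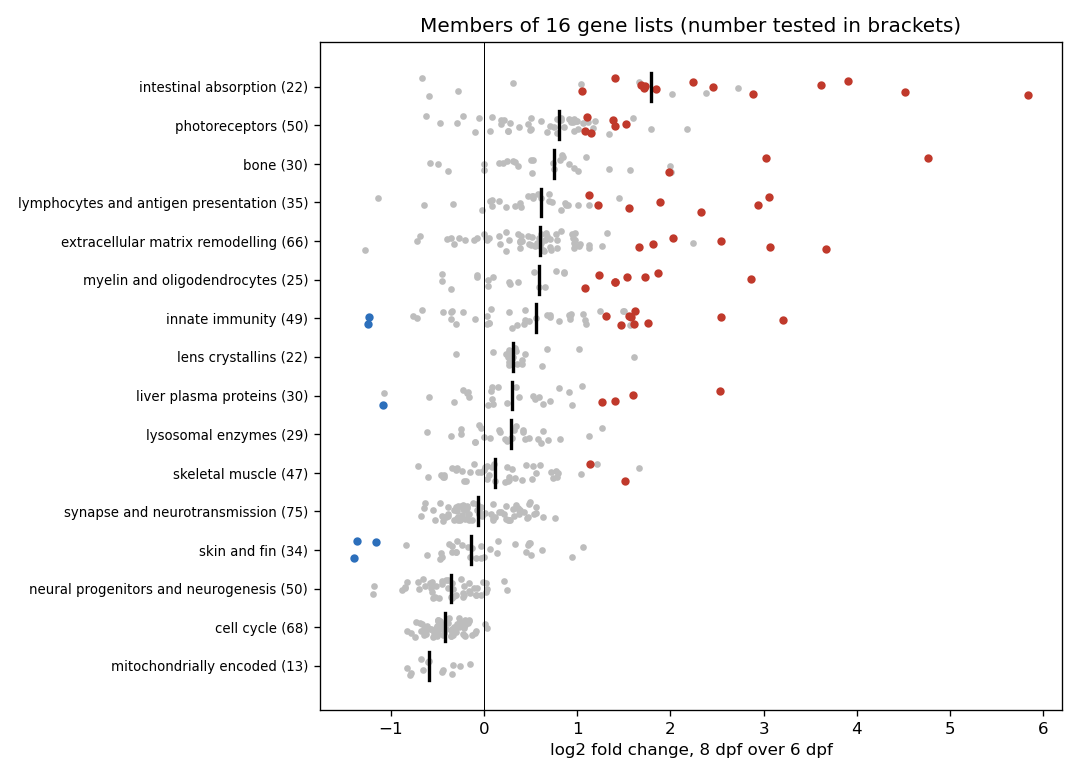
Log2 fold change, 8 dpf over 6 dpf (x axis), of each tested member of 16 gene lists, with the number tested in brackets, ordered by the list's median (black bar); DEGs higher at 8 dpf are red, DEGs lower at 8 dpf are blue and other members are grey. Among these 16 lists, intestinal absorption has the highest median (1.79). The cell cycle (-0.42) and mitochondrially encoded (-0.59) lists have the lowest, without any DEG.

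Of the 10 genes that rose most by the naming rule, 4 carry only a locus number and no role is given for them here. LOC108280999 had 33.4 and 47.7 CPM at 8 dpf, against 0.618 and 0.973 CPM at 6 dpf, and lies directly beside chia.1 in the order of tested genes along the RefSeq annotation. LOC108259110 had 41.9 and 71.1 CPM at 8 dpf, against 1.13 and 1.46 CPM at 6 dpf. LOC108273353 had 42.2 and 48.1 CPM at 8 dpf, against 0.206 and 2.82 CPM at 6 dpf, and LOC108255198 had 8.89 and 16 CPM at 8 dpf, against 0.000 and 0.486 CPM at 6 dpf. The 6 dpf libraries of the last gene were at or near 0, so its fitted log2 fold change of 5.53 depends on the prior count. With a name but outside the lists, cochlin (coch), a secreted matrix protein known from the mammalian inner ear, had 199 and 179 CPM at 8 dpf, against 4.53 and 4.77 CPM at 6 dpf, a log2 fold change of 5.34 ± 0.79 (adjusted p = 0.00302). The lysozyme gene lysc, whose product degrades bacterial cell walls, had 17.6 and 21.4 CPM at 8 dpf, against 0.309 and 0.876 CPM at 6 dpf (4.98 ± 0.99), and catl had 37.5 and 36 CPM at 8 dpf, against 0.309 and 0.876 CPM at 6 dpf (5.90 ± 1.06).

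The downregulated genes were led by unnamed loci and a hatching enzyme gene. LOC108261316 had 1.29 and 1.04 CPM at 8 dpf, against 41.6 and 85.8 CPM at 6 dpf, a log2 fold change of -5.73 ± 0.50 (adjusted p = 9.5e-05). Its means were 2.00, 42.7, 63.7, 7.37 and 1.16 CPM at 2, 5, 6, 7 and 8 dpf, so it was highest at 6 dpf among these stages. It is the first of 7 consecutive tested genes in the RefSeq order that were all downregulated DEGs, together with LOC108261612, LOC108261436, LOC108261757, LOC108263779, LOC108263784 and LOC108262008. The log2 fold changes of the 7 lay between -6.08 for LOC108261612 and -1.70 for LOC108263779, and no role is given for these loci here. At 8 dpf LOC108261612 had 0.0644 and 0.115 CPM and LOC108261436 had 0.129 and 0.0 CPM, under the level of 3 counts. Their fitted log2 fold changes of -6.08 and -6.02 therefore depend on the prior count. Whether reads were shared between near-identical copies in this group was not tested. Genes given only by the identifiers 108261691, 108261484 and 108262646 followed, with 1.35 and 1.96 CPM at 8 dpf against 38.7 and 67.6 CPM at 6 dpf for gene 108261691 (-5.05 ± 0.37). Below them came LOC108265831, with 8.44 and 9.1 CPM at 8 dpf against 59 and 95.5 CPM at 6 dpf, and LOC108261668, LOC108265573 and LOC108258581, with log2 fold changes from -2.95 to -2.70.

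Hatching enzymes are secreted proteases that digest the egg envelope from inside. LOC108259527, which the study names as the high choriolytic enzyme HCEA, had 5.86 and 8.30 CPM at 8 dpf, against 81.6 and 92.4 CPM at 6 dpf, a log2 fold change of -3.64 ± 0.31 (adjusted p = 8.53e-05). Its direct neighbour LOC108259525, for which no role is given here, had 4.96 and 5.99 CPM at 8 dpf, against 48.4 and 61.1 CPM at 6 dpf (-3.33 ± 0.24). Over the stages both came down from means of 1750 and 1150 CPM at 2 dpf, so at 6 dpf they were already far below their level before hatching. The 5 tested genes of the hatching gland list, among them xbp1 and cd63, held no DEG in edgeR, with 1 at an unadjusted p under 0.05, while DESeq2 called 0 on all 14 libraries and DESeq2 and edgeR each called 1 on the 4 libraries alone. The gene hce2l1, whose symbol places it in the hatching enzyme family, was an upregulated DEG, with 27 and 16 counts at 8 dpf and none in either 6 dpf library. With 3 counts per library as the floor it was at least 5.84-fold higher at 8 dpf, and it had no count at 2 dpf.

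Plakins of the epidermis were lower at 8 dpf. Periplakin (ppl), which links keratin filaments to desmosomes, had 217 and 329 CPM at 8 dpf, against 624 and 776 CPM at 6 dpf, a log2 fold change of -1.36 ± 0.21 (adjusted p = 0.00357). The envoplakin copies evpla, with 101 and 146 CPM at 8 dpf against 281 and 372 CPM at 6 dpf (-1.4 ± 0.20), and evplb, with 193 and 246 CPM at 8 dpf against 429 and 553 CPM at 6 dpf (-1.16 ± 0.18), moved with it. These 3 were the DEGs among 34 skin and fin genes (8.82%, against 0.605% of all genes downregulated), whose median was -0.14. The list held 0 downregulated DEGs without replicate 2 of 6 dpf, 3 without replicate 1 of 6 dpf, 2 without replicate 1 of 8 dpf and 4 without replicate 2 of 8 dpf.

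Further downregulated genes with a single DEG in their list were otolith protein starmaker (stm), with 169 and 154 CPM at 8 dpf, against 320 and 347 CPM at 6 dpf (-1.04 ± 0.26), and neurotensin (nts), a peptide of gut and brain, with 2.77 and 1.5 CPM at 8 dpf, against 6.18 and 8.56 CPM at 6 dpf (-1.71 ± 0.37). The fold change of stm lay near the threshold. DESeq2 on the 4 libraries also called stm. RLE scaling, no filter, DESeq2 on all 14 libraries and edgeR on the 4 libraries did not call it. Neither did a replicate block, a minimum of 10 counts or testing the null of a 2-fold change. Named after their values had been seen, bhmt, which returns a methyl group from betaine to homocysteine, had 245 and 256 CPM at 8 dpf, against 739 and 810 CPM at 6 dpf, a log2 fold change of -1.63 ± 0.17 (adjusted p = 0.00039). The lipid droplet protein gene plin3 had 32.6 and 37.6 CPM at 8 dpf, against 109 and 106 CPM at 6 dpf, the zinc transporter gene slc39a5 had 3.61 and 3.57 CPM at 8 dpf, against 16.6 and 15.1 CPM at 6 dpf, and thioredoxin (txn) had 54.7 and 68.2 CPM at 8 dpf, against 136 and 138 CPM at 6 dpf. In each of them both 8 dpf libraries lay well under both 6 dpf libraries, and the stages did not overlap in 61.0% of all genes tested.

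In the cell cycle list, 0 of 68 genes were DEGs in edgeR or in DESeq2 with both libraries of each stage, and 1 was downregulated without replicate 2 of 8 dpf. In edgeR on all libraries, 4 passed the adjusted p at a smaller fold, all lower at 8 dpf (1.54% of all genes were lower and 2.79% higher at 8 dpf by that rule), and 35 had an unadjusted p under 0.05, all lower at 8 dpf (10.5% of all genes). The median of the list was -0.42, 2 of the 68 genes lay above 0, and the median stayed between -0.48 and -0.34 when the scaling was changed or a library was left out. The proliferation marker gene mki67 had 170 and 198 CPM at 8 dpf, against 287 and 299 CPM at 6 dpf, a log2 fold change of -0.67 ± 0.17 (adjusted p = 0.045). The topoisomerase gene top2a had 162 and 206 CPM at 8 dpf, against 272 and 248 CPM at 6 dpf (adjusted p = 0.0918).

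None of 82 cytosolic ribosomal protein genes was a DEG and none had an unadjusted p under 0.05 in edgeR or was called by DESeq2, and their median was 0.16 with 72 above 0. The 13 mitochondrially encoded genes all lay below 0 with a median of -0.59 and no call at an unadjusted p under 0.05 in edgeR or by DESeq2. This median was -1.05 without replicate 1 of 8 dpf, -0.18 without replicate 2 of 8 dpf, 0.03 without replicate 1 of 6 dpf and -0.90 without replicate 2 of 6 dpf, so single libraries decided it. Their summed level was 4915 and 4500 CPM at 8 dpf, against 5864 and 5243 CPM at 6 dpf. Nuclear genes of oxidative phosphorylation (65 tested) and proteasome genes (51) held no DEG in edgeR or DESeq2 on all 14 libraries, with 1 and 6 at an unadjusted p under 0.05 in edgeR (21.1% of all genes), and edgeR on the 4 libraries alone called 1 gene of oxidative phosphorylation. Their lists had medians of 0.08 and -0.10.

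The remaining lists held few DEGs, set against 2.32% of all genes that were upregulated DEGs. In the circadian list, 1 of 37 genes was a DEG, nfil3-6 (1.77 ± 0.41), in the list of pituitary and thyroid 1 of 24, thyrotropin-releasing hormone (trh, 1.17 ± 0.25), in the pigment list 1 of 21, the melanosome transporter gene oca2 (1.13 ± 0.20), and in the globin and erythroid list 1 of 18, the embryonic globin gene hbae3. This globin had 5.02 and 4.38 CPM at 8 dpf and 1.54 and 0.778 CPM at 6 dpf. It had 0.564 and 1.85 CPM at 9 dpf, against 6.92 and 6.98 CPM at 7 dpf, a log2 fold change of -2.60, and was the 1 upregulated DEG of 8 dpf that was a downregulated DEG in that comparison. In the list of ion transport and kidney, 2 of 36 were upregulated, cubn and cdh17. In the list of endothelium and blood vessels, 4 of 39 were upregulated, the lymphatic gene lyve1a and the smooth muscle genes desmb, acta2 and tagln. Smooth muscle actin (acta2) had 279 and 404 CPM at 8 dpf, against 141 and 118 CPM at 6 dpf, a log2 fold change of 1.39 ± 0.29. Lysosomal enzymes (29 tested), immediate early and heat shock genes (45) and chemosensory genes (9) held no DEG in edgeR on all 14 libraries, with medians of 0.29, 0.15 and 0.20 and with 9, 12 and 2 genes at an unadjusted p under 0.05, against 21.1% of all genes. Of the lysosomal genes, 1 was called by DESeq2 on all 14 libraries, by edgeR with RLE scaling and by edgeR without a filter, and 2 by each tool on the 4 libraries alone, where edgeR also called 2 immediate early or heat shock genes. Both lists were matched by symbol or synonym. They do not hold catl, cts12 and hsc70, whose symbols resemble those of listed genes. These genes were upregulated DEGs, with log2 fold changes of 5.9, 2.29 and 1.33. The single DEGs of the circadian, pituitary, globin, ear and gut hormone lists and both of the ion transport list were no longer DEGs whichever single library of the 4 was left out. That of the pigment list remained a DEG only without replicate 2 of 8 dpf, and the endothelium list held 1 or 2 DEGs in these fits.

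The comparison of 9 with 7 dpf shares no library with that of 8 with 6 dpf and spans the same number of days, 1 day later. Both came from the same fit, so their DEG calls share its estimate of spread. It gave 336 DEGs, of which 286 were upregulated at 9 dpf (1.41% of the genes tested) and 50 were downregulated (0.246%). Of the 472 genes upregulated at 8 dpf, 457 had a log2 fold change above 0 in the second comparison (96.8%, against 49.8% of all genes), with a median of 1.12, and 161 were also upregulated DEGs there, which was 34.1% of the 472 and 56.3% of the 286. Of the genes downregulated at 8 dpf, 110 lay below 0 (89.4% of them, against 50.2% of all genes), with a median of -0.63, and 18 were downregulated DEGs, 14.6% of those downregulated at 8 dpf and 36% of the 50. In pepa, the 9 dpf libraries had 164 and 244 CPM, against 3.30 and 5.79 CPM at 7 dpf, and in coch they had 324 and 570 CPM, against 14.3 and 14.9 CPM at 7 dpf.

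**Figure D4:**
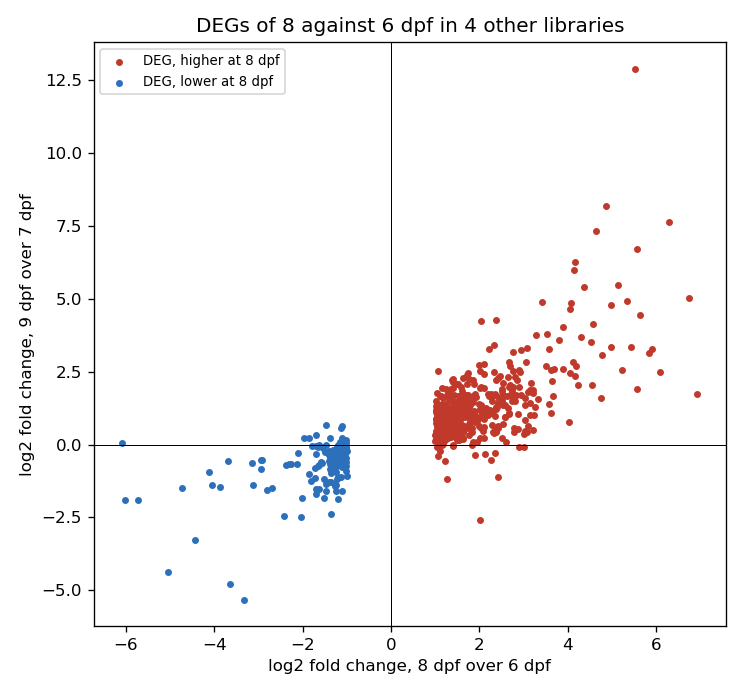
Log2 fold change of the 595 DEGs between 8 and 6 dpf (x axis) and of the same genes between 9 and 7 dpf (y axis), with DEGs higher at 8 dpf in red and DEGs lower at 8 dpf in blue. Most red points (457 of 472) lie above 0 on the y axis and most blue points (89.4%) below 0.

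At 7 dpf, the stage between, the mean CPM lay between the 8 and 6 dpf means for 413 of the 472 upregulated DEGs (87.5%) and for 97 of the downregulated DEGs (78.9%), against 32.6% of all genes tested. The larger step came between 6 and 7 dpf in 261 of the upregulated DEGs and between 7 and 8 dpf in 211. Genes differed in this course. Some genes were near their 8 dpf level at 7 dpf: bglapl had means of 2.06, 37.9 and 55.9 CPM at 6, 7 and 8 dpf, spp1 had 3.05, 28.5 and 24.6 CPM, and mmp9, of the matrix list, had 2.55, 29.4 and 21.3 CPM. The third bone DEG, postna, was about midway at 7 dpf, with 14.5, 33.2 and 57.4 CPM, and over the whole bone list the median log2 fold change was 0.05 between 7 and 6 dpf and 0.51 between 8 and 7 dpf. Others were still low at 7 dpf: pepa had 1.65, 4.55 and 58.4 CPM at the same 3 stages, cldn18 had 0.850, 1.01 and 13 CPM, coch had 4.65, 14.6 and 189 CPM, and LOC108273353 had 1.51, 1.54 and 45.1 CPM. At 10 dpf, 467 of the 472 upregulated genes still lay above their 6 dpf mean and 122 of the downregulated genes below it (99.2%). These values use the 8 and 6 dpf libraries that chose the genes, so they describe the course of the genes and are not a test of it. The 7 dpf libraries have a lower recorded mapping rate than those of 6 and 8 dpf. Steps into and out of 7 dpf cannot be told apart from that difference between libraries, and its share in them was not tested.

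**Figure D5:**
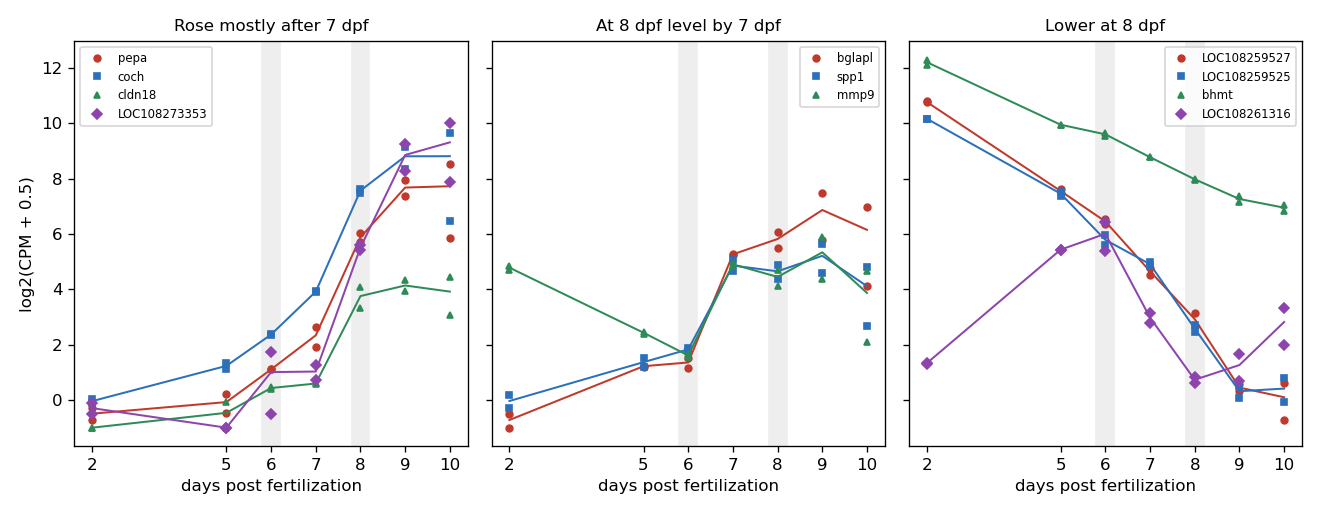
Level in log2(CPM + 0.5) (y axis) of 11 genes over the 7 stages in days post fertilization (x axis), with a point for each library and a line through the stage means, and with 6 and 8 dpf shaded. In the left panel the levels rise mostly between 7 and 8 dpf, in the middle panel between 6 and 7 dpf, and in the right panel they are lower at 8 dpf than at 6 dpf.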

How the data were processed

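Paired-end reads of ribosomal RNA-depleted libraries were trimmed with Trimmomatic 0.36, aligned with STAR 2.7.0 and counted over exons with HTSeq-count by the authors, per the labels and the study's methods. The strand setting, genome build and annotation of the counting are not given in the sources used here, so overlapping and near-identical genes may share reads. The authors deposited whole-number counts per gene for 14 libraries. Rows sharing a gene identifier were summed (3 identifiers), which gave 23231 genes, and symbols came from a RefSeq gene table of assembly Coco_2.0 (21834 genes matched). The deposited counts of replicate 1 at 8 dpf, unlike those of the other 3 libraries compared, did not rescale by a constant factor per gene to the normalized values listed by the authors.

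The counts were tested with edgeR 4.0.16 (R 4.3.3) by the quasi-likelihood test on all 14 libraries with a mean per stage, after TMM normalization and edgeR's low-count filter (20329 genes), and DEGs needed a Benjamini-Hochberg adjusted p under 0.05 and a change of at least 2-fold. CPM values are TMM-scaled. The code was tested on simulated data. Alternatives were DESeq2 1.42.0, RLE scaling, other filters and samples, a test against the fold change, a replicate block and leaving out each library.

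Named genes were the 10 rising and 10 falling most whose stages did not overlap and whose higher mean reached 10 CPM. Each of 36 lists added up to 4 DEGs whose higher mean reached 10 CPM. Lists without such a DEG added their 2 most abundant members. Of the 36 lists, 3 were matched by symbol pattern because the gene table held no descriptions. The members and lists were chosen with earlier results of these data known, and further genes were named after their values were seen. Counting error limits genes under 3 counts. No sequence is shown. A gene of the intestinal list is not reported here by name.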

Additional observations from a re-analysis of the deposited data

How the results depend on the processing

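None of the 173 named DEGs changed direction under an alternative that gave it a value (the minimum of 10 counts gave a value for 79 of them, and edgeR on 4 libraries for 172), but the number of DEGs moved. The alternatives reuse the libraries that chose these genes, so a kept direction is not a separate test. Against 595 DEGs (472 upregulated), DESeq2 on all 14 libraries called 696 (597 upregulated, 85.8%). RLE scaling gave 644 (538 upregulated, 83.5%) and no filter 667 (561 upregulated, 84.1%). On the 4 libraries alone, DESeq2 called 893 (770 upregulated, 86.2%) and edgeR 1273 (1098 upregulated, 86.3%). Testing the null of a 2-fold change called 80 (61 and 19, 76.2% upregulated). A minimum of 10 counts in every library gave 246 (190 and 56, 77.2% upregulated), of which 220 were among the 595. Leaving out single libraries gave 109 to 279 DEGs, 74 to 192 upregulated and 35 to 87 downregulated, and fewer libraries enter these fits. The upregulated share was 79.3%, against 63.2% without replicate 1 and 67.9% without replicate 2 of 6 dpf, and 68.8% without replicate 2 of 8 dpf. Between 9 and 7 dpf, a minimum of 10 counts gave 154 DEGs, against 336. The replicate numbers share only a number (correlation of deviations 0.044 over 2 pairs), and a fit with the replicate block called 483 DEGs, 379 upregulated and 104 downregulated.

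Uncalled genes near 0 changed sign. The median log2 fold change of all genes also moved with the processing. It was -0.04 in edgeR on all libraries and with the replicate block, and 0.01 with RLE scaling and in DESeq2 on all libraries. Without a filter and in edgeR on 4 libraries it was 0.02. The log2 fold change of hsp90ab1 was 0.03 in DESeq2 on all libraries, 0.02 in DESeq2 and 0.04 in edgeR on 4 libraries, 0.03 with RLE, 0.06 with the minimum of 10, 0.04 without a filter and -0.07 to 0.07 without single libraries. For slc6a1b it was 0.01 in edgeR on 4 libraries, 0.03 with the minimum, 0.01 without a filter and -0.14 to 0.17 without single libraries. For atp5f1b it was 0.02 and 0.01 in DESeq2 on all and on 4 libraries, 0.03 with RLE, 0.03 in edgeR on 4 libraries, 0.06 with the minimum, 0.03 without a filter and -0.07 to 0.14 without single libraries. Without single libraries the log2 fold change also crossed 0 for hmgb2a (-0.12 to 0.16), nucb2a (-0.04 to 0.21), tefa (-0.11 to 0.26), crybb1l1 (-0.04 to 0.53), tubb5 (-0.14 to 0.05), atp5fa1 (-0.10 to 0.01) and alas2 (-0.20 to 0.03). The cause of these changes was not tested.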

Other observations

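The 4 lists that follow were put together after the values had been seen, and their counts are descriptions of these libraries. Over all genes, 2.32% were upregulated and 0.605% downregulated DEGs, and 1.54% passed the adjusted p at any fold and were lower at 8 dpf. A wider list of brush border and enterocyte genes held 34 tested genes, of which 25 were upregulated at 8 dpf and none was downregulated, with a median log2 fold change of 1.58 and with all 34 above 0. Without replicate 1 and replicate 2 of 8 dpf 5 and 7 of these genes were DEGs, and 2 without either replicate of 6 dpf, while 23 to 25 still differed at least 2-fold. Enteropeptidase (tmprss15), which activates trypsinogen, had 6.38 and 7.49 CPM at 8 dpf, against 0.618 and 0.973 CPM at 6 dpf. The chloride-bicarbonate exchanger gene slc26a3.2 had 10.7 and 9.56 CPM at 8 dpf, against 0.618 and 0.584 CPM at 6 dpf, and the microvillar link genes cdhr2 and cdhr5b had 55.1 and 61.7 CPM and 17.1 and 21.0 CPM at 8 dpf, against 18.6 and 13.7 CPM and 3.60 and 4.18 CPM at 6 dpf. The phosphate transporter gene slc34a2a had 15 and 21 counts at 8 dpf and no count in either 6 dpf library, which makes it at least 5.52-fold higher at 8 dpf with 3 counts per library as the floor.

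In a list of smooth muscle genes, 7 of 18 were upregulated, with a median of 0.76, and 2 to 4 were DEGs when single libraries were left out. The smoothelin gene smtna had 7.99 and 8.07 CPM at 8 dpf, against 1.65 and 1.36 CPM at 6 dpf, and the calponin gene cnn1b had 52.7 and 57.7 CPM at 8 dpf, against 20.2 and 20 CPM at 6 dpf. In a list of nucleolar and ribosome biogenesis genes, 3 of 100 were downregulated, nolc1, mybbp1a and dnajc21. Their log2 fold changes of -1.03, -1.07 and -1.04 lay near the threshold. RLE scaling, no filter, DESeq2 on all 14 libraries and edgeR on the 4 libraries each called 1 gene of the list as downregulated. DESeq2 on the 4 libraries called 2, the replicate block 3 and the minimum of 10 counts 0. In edgeR on all libraries, 21 of the 100 passed the adjusted p at any fold, all lower at 8 dpf. The median of the list was -0.44, with 6 of 100 above 0. Between 9 and 7 dpf, 7 of these 100 genes lay above 0, and the median was -0.37. In a list of one-carbon metabolism and the urea cycle, 3 of 27 were downregulated, bhmt, the folate enzyme gene mthfd1b and cps1, which makes carbamoyl phosphate, with a median of -0.10. Without single libraries, 0 to 2 nucleolar and 1 to 3 one-carbon genes were downregulated DEGs.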
